A study of Mus musculus with 15 samples.

Results

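Fibroblast growth factors (FGFs) and their receptors were followed through 8 genes: the receptors Fgfr1, Fgfr2 and Fgfr3, the receptor-like gene Fgfrl1, and the ligands Fgf2, Fgf7, Fgf10 and Fgf18. The members were all probe sets that the array annotation maps to 1 of these symbols alone, which gave 8 of 18194 genes and 15 of the 45101 probe sets on the Affymetrix Mouse Genome 430 2.0 array. Primary chondrocytes, the cells of cartilage, were isolated from the long bones of CD1 mouse embryos at embryonic day 15.5, grown as a monolayer and treated in 5 groups of 3 arrays each. The groups were LY294002 (10 µM), an inhibitor of phosphatidylinositol 3-kinase (PI3K), UO126 (10 µM), an inhibitor of MEK, the kinase that activates ERK, SB202190 (10 µM), listed by the series with UO126 as a MEK/ERK pathway inhibitor and in wide use as an inhibitor of p38 kinases, Trichostatin A (TSA), an inhibitor of histone deacetylases, and DMSO, the vehicle of all 4 inhibitors. RNA was taken at 24 h (for the first LY294002 and UO126 arrays the label reads up to that time), all cultures received ascorbic acid and β-glycerophosphate, and the unit of the TSA dose could not be read in the labels. The cultures came from whole digested bones and were not sorted for cell type, and the series calls the arrays of a group biological replicates. The 9 chondrocyte marker genes on the list used here were all measured, with a summed signal of 21489 to 33057 in DMSO cultures, and the minimum signal was also reached by markers of other cell types, 8 of 8 for fibroblasts (summed signal 13309 to 19136 in DMSO cultures), 7 of 7 for skeletal muscle, the 4 osteoblast markers on the array, 5 of 6 for epithelium, 5 of 7 for macrophages and 1 of 6 for endothelium.

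FGFs are secreted proteins that bind receptor tyrosine kinases together with heparan sulfate, and the receptors signal through the adaptor Frs2 to the Ras, MEK and ERK cascade and to PI3K and Akt. In the growth plate, Fgfr3 is the receptor of proliferating chondrocytes and restrains their proliferation, Fgfr1 is known from hypertrophic chondrocytes, and Fgfr2 from the perichondrium and osteoblasts. Fgfrl1 binds FGFs but has no tyrosine kinase domain. Fgf18 is a ligand of cartilage made in the perichondrium, Fgf7 and Fgf10 act on epithelia through the IIIb form of Fgfr2, and Fgf2 is a broadly acting ligand used on chondrocytes in culture.

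The bases just upstream of the annotated start are shown for Fgfr3 and Fgfrl1, the members that moved together across the treatments, and for Fgf7, the member with the largest change. They are from RefSeq on mouse build GRCm38.p6, 250 bases each up to the base before the start, written on the strand of the gene. Fgfr3 lies at chr5:33721474-33721723 (plus strand), Fgfrl1 at chr5:108693979-108694228 (plus strand) and Fgf7 at chr2:126034408-126034657 (plus strand), and capitals mark each GC box (GGGCGG, or CCGCCC on the other strand).
Fgfr3: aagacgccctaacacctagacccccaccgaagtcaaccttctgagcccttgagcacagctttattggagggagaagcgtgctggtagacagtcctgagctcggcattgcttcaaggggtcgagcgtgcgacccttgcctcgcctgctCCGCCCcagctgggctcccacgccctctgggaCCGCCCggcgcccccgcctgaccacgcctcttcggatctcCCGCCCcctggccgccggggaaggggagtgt
Fgfrl1: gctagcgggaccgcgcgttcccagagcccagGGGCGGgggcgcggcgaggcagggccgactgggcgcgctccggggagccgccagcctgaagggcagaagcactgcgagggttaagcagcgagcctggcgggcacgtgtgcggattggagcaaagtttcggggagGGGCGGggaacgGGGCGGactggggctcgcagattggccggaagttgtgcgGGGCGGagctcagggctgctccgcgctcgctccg
Fgf7: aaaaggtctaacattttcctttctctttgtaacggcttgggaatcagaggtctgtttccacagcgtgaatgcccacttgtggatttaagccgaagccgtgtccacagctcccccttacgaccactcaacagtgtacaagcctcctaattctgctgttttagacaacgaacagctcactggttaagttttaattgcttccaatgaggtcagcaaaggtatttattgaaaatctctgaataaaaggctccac

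The Fgfr3 window held 3 GC boxes, the Fgfrl1 window 4 and the Fgf7 window 0, and 32.7% of all 32851 windows of the same length held at least 1. The share of G and C bases was 66.8% in the Fgfr3 window, 73.6% in the Fgfrl1 window and 43.6% in the Fgf7 window, against a median of 52.4% over all windows. Of the 8 genes, 7 had a window in the table, and Fgfr3 had 2. Among 5 other motifs searched on both strands, an ETS core (CCGGAAG, in 6.91% of all windows) was found in the Fgfrl1 window and a FoxO site (GTAAACA, in 3.17%) in the Fgf10 window, and an AP-1 site (TGACTCA, 4.46%), a TATA box (TATAAA, 12.4%) and an E-box (CACCTG, 17.2%) were found in none of the members' windows. These are matches of letters only.

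The values were MAS5 signals, a linear measure of a probe set's brightness scaled to the same trimmed mean of 150 on every array. A signal shows how a probe set differs between arrays and is not compared between probe sets. The test took in every probe set with a mean of at least 50 in 1 or more of the 5 groups, a minimum that 12 of the 15 member probe sets (6 of the 8 genes) reached, and log2 signals were compared with limma, adjusted over all 21765 probe sets tested within each comparison. Fgf2, Fgf10 and the Fgfr2 probe set 1443211_at stayed below this minimum.

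Under LY294002, 5 of the 12 tested member probe sets rose and 0 fell, where 4.45% of all tested probe sets rose and 3.33% fell. With the replicate number as a block, 8 rose, where 7.83% of all rose. Under UO126, 3 rose and 0 fell, where 1.36% of all rose and 1.32% fell. Under SB202190, 0 of the 12 passed the threshold in the limma test (3 had an unadjusted p under 0.05), where 1.53% of all rose and 1.31% fell. Under TSA, 1 was called higher and 7 fell, where 28.1% of all rose and 26.6% fell. The 1 higher call was Fgf18, which entered the test only because it was high with TSA, so this call supports nothing. The median log2 change of the 12 probe sets was 0.40 under LY294002, 0.16 under UO126, −0.03 under SB202190 and −0.55 under TSA, and the median over all tested probe sets lay between −0.013 and 0.012. The count under LY294002 was 1 without LY294002 array 3 or without DMSO array 1, 2 without LY294002 array 2 or DMSO array 2, and 3 without LY294002 array 1. The count under UO126 was 1 without UO126 array 1 or 3 or without DMSO array 1 or 2, and that probe set was Fgfr3 1421841_at. Several of these calls are probe sets of the same gene. By representative probe set, 2 of the 6 tested genes rose and 0 fell under LY294002, and likewise under UO126. In the same count 0 of the 6 passed under SB202190, and under TSA 3 fell and 1, Fgf18, was called higher. All 4 comparisons use the same DMSO arrays.

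**Figure D1:**
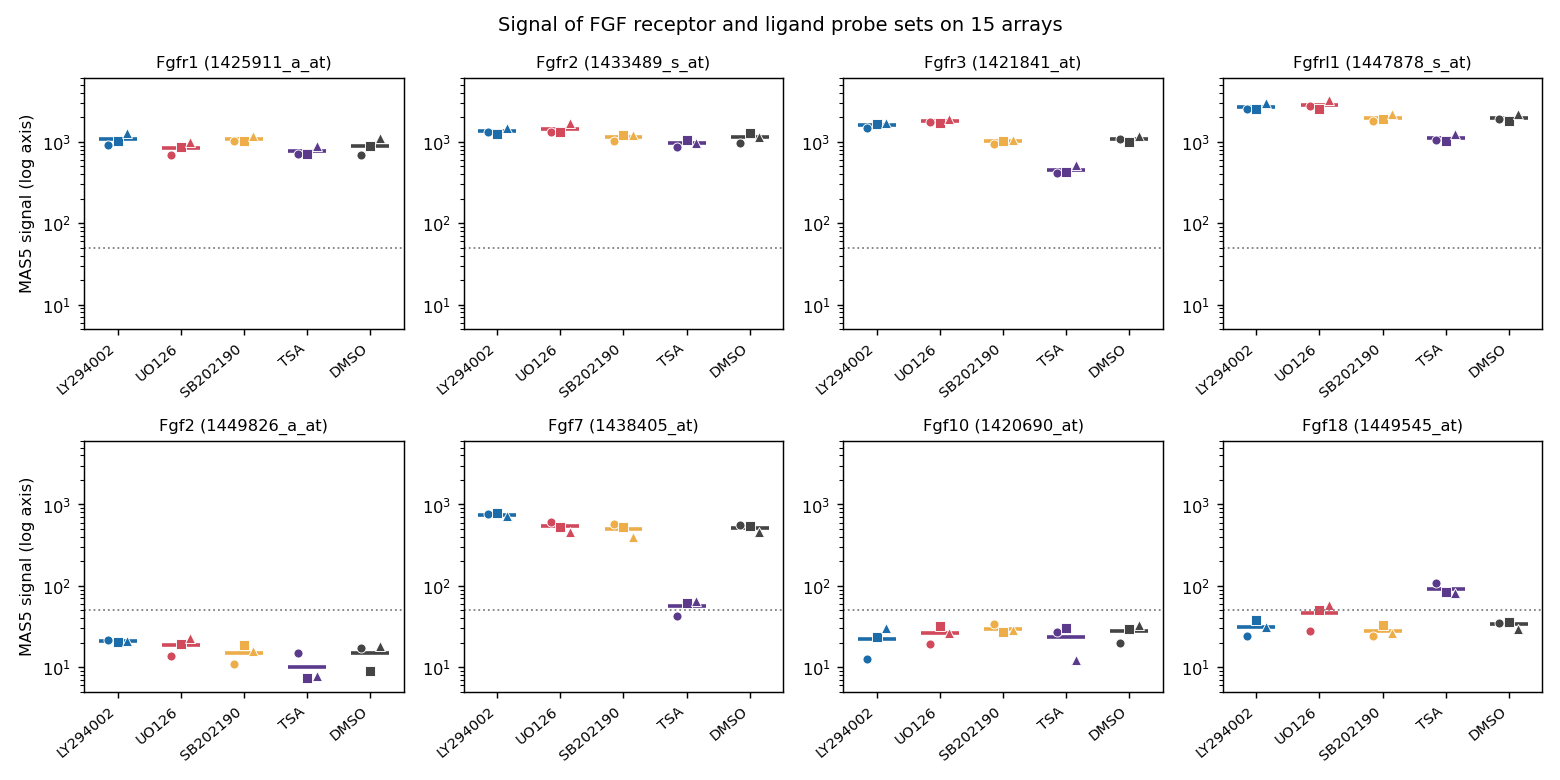
MAS5 signal (log axis) of the representative probe set of each of the 8 genes on the 15 arrays, by treatment, with circles, squares and triangles for arrays 1, 2 and 3, horizontal bars for the group means and a dotted line at the minimum signal of 50. Fgfr3 and Fgfrl1 lie highest with LY294002 and UO126 and lowest with TSA, Fgf7 drops to a mean of 56.7 with TSA, and Fgf2 and Fgf10 stay under the line in every group.

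**Figure D2:**
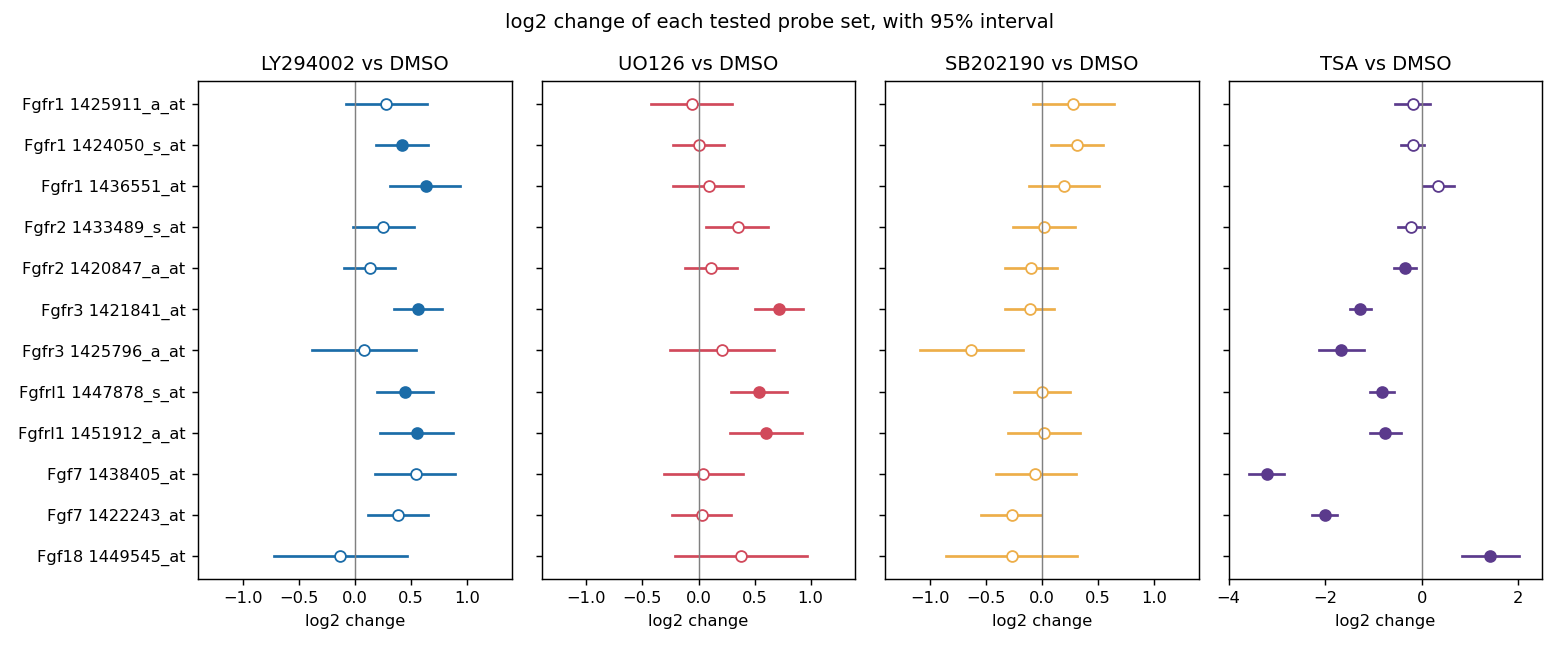
log2 change against DMSO of the 12 tested probe sets (rows) for each inhibitor (panels, with a wider axis for TSA), with lines for the 95% interval and filled circles where the limma adjusted p was under 0.05. Filled circles lie to the right with LY294002 (5) and UO126 (3), there are 0 with SB202190, and with TSA 7 lie to the left and Fgf18, whose DMSO signals were under the minimum, to the right.

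Fgfr3, the receptor that slows chondrocyte proliferation, rose with LY294002 and UO126 and fell with TSA. Its representative probe set 1421841_at had signals of 1464, 1666 and 1697 on the LY294002 arrays and 1753, 1701 and 1916 on the UO126 arrays, against 1079, 1002 and 1193 on the DMSO arrays. Every LY294002 and UO126 array lay above every DMSO array. The SB202190 arrays had 951, 1023 and 1055 and overlapped DMSO, and the TSA arrays had 409.6, 430.2 and 526 and lay below all others. The change was 1.47-fold with LY294002 (log2 0.56 ± 0.10 SE, adjusted p = 0.00443), 1.64-fold with UO126 (0.72 ± 0.10, adjusted p = 0.000935) and a 2.41-fold decrease with TSA (−1.27 ± 0.10, adjusted p = 5.67e-08). With SB202190 the log2 change was −0.11, with a 95% interval of −0.33 to 0.11. These 3 calls held for this probe set under all 24 alternatives, with adjusted p of up to 0.0349 for LY294002 and up to 0.0117 for UO126. In RNA from whole cultures, fewer cells of a type and less RNA per cell cannot be told apart.

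The second Fgfr3 probe set, 1425796_a_at, passed the threshold with TSA alone. It had 117, 127 and 117 on the LY294002 arrays, 112, 106 and 192 on the UO126 arrays, 62.3, 69.3 and 92.1 on the SB202190 arrays and 32.5, 36.3 and 39.1 on the TSA arrays, against 141, 102 and 103 on the DMSO arrays. LY294002 and UO126 overlapped DMSO (log2 0.08 ± 0.22, adjusted p = 0.868, and 0.21 ± 0.22, adjusted p = 0.757), while the TSA arrays were again below all others (−1.67 ± 0.22, adjusted p = 9.78e-06). Every SB202190 array was below every DMSO array, but the change of −0.63 ± 0.22 missed the threshold (adjusted p = 0.146). When the median of the 2 probe sets stood for the gene, Fgfr3 missed the threshold with LY294002 (log2 0.32, adjusted p = 0.146) and UO126 (0.46, adjusted p = 0.0742). The fall with TSA passed in both probe sets and the rise with LY294002 and UO126 in 1421841_at alone. Which transcripts each probe set detects was not tested.

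Fgfrl1, the receptor without a kinase, took the same order of groups as Fgfr3 1421841_at. Its representative probe set 1447878_s_at had 2527, 2559 and 2963 on the LY294002 arrays, 2778, 2510.2 and 3273 on the UO126 arrays, 1805, 1908 and 2169.9 on the SB202190 arrays and 1053, 1021 and 1259 on the TSA arrays, against 1881, 1813 and 2196 on the DMSO arrays. LY294002 and UO126 lay wholly above DMSO, TSA wholly below, and SB202190 among the DMSO values. The gene rose 1.37-fold with LY294002 (log2 0.45 ± 0.12, adjusted p = 0.0299) and 1.45-fold with UO126 (0.54 ± 0.12, adjusted p = 0.0221) and fell 1.77-fold with TSA (−0.82 ± 0.12, adjusted p = 2.51e-05). The SB202190 change was 0.00, with a 95% interval of −0.25 to 0.25.

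The other Fgfrl1 probe set, 1451912_a_at, went the same way, with means of 1147 ± 169 with LY294002, 1196 ± 223 with UO126 and 465 ± 58.3 with TSA, against 789.7 ± 153 with DMSO (SD, n = 3 arrays each). Its log2 changes were 0.55 ± 0.15 (adjusted p = 0.0398), 0.60 ± 0.15 (adjusted p = 0.0475) and −0.75 ± 0.15 (adjusted p = 0.000595). The decreases with TSA held under all 24 alternatives for both probe sets, and the increases did not. For 1447878_s_at the LY294002 call was lost without any 1 LY294002 array or without DMSO array 1 or 2 (adjusted p 0.0524 to 0.109), and the UO126 call without UO126 array 1 or 3 or DMSO array 1 or 2 (0.0542 to 0.11). For 1451912_a_at the LY294002 call was lost without any LY294002 array, SB202190 array 1 or 2, or DMSO array 1 or 2 (0.0511 to 0.137). Its UO126 call was lost in 12 of these omissions, all but those of LY294002 array 3, TSA array 1 and DMSO array 3 (0.0509 to 0.211). With all arrays and the replicate number as a block, the increases passed at 1447878_s_at (adjusted p = 0.000813 with LY294002 and 0.000223 with UO126). They also passed at 1451912_a_at (0.00242 and 0.00179).

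**Figure D3:**
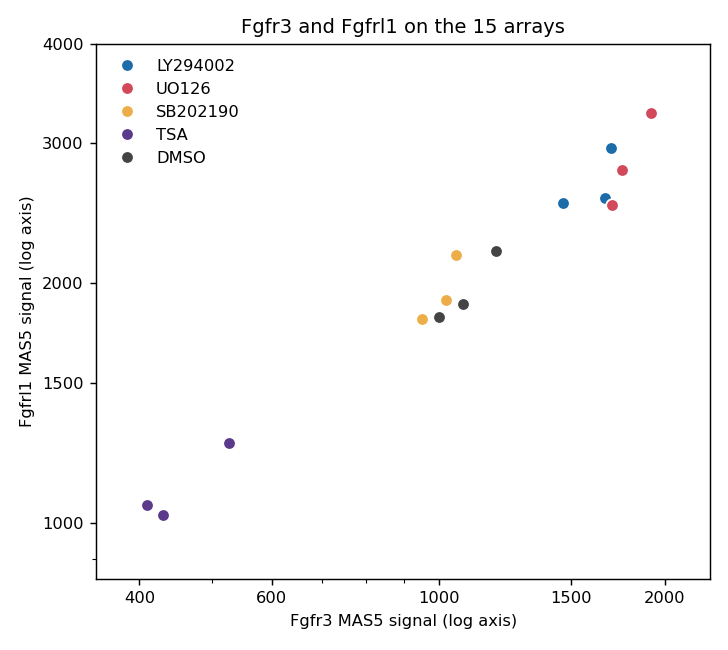
Signal of Fgfr3 (1421841_at, x axis) and Fgfrl1 (1447878_s_at, y axis), both on log axes, with 1 point for each of the 15 arrays coloured by treatment. The LY294002 and UO126 arrays sit at the upper right, SB202190 and DMSO in the middle and TSA at the lower left.

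Across the arrays, Fgfr3 and Fgfrl1 followed each other closely. Pearson's r of their log2 signals was 0.987 over the 15 arrays and 0.95 over the 12 without TSA, and among 11332 tested genes Fgfrl1 had the highest r with Fgfr3. The next was Mia, a cartilage protein first named from melanoma (0.981, and 0.95 without TSA). For Fgfrl1 the most alike gene was Fibin (0.989, and 0.97 without TSA), followed by Fgfr3. The arrays of a group share their treatment, so most of this likeness is between groups.

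Fgfr1, a receptor known from hypertrophic chondrocytes, had 3 tested probe sets, and 2 of them rose with LY294002. Probe set 1424050_s_at had 1051, 1047 and 1256 on the LY294002 arrays, against 753, 861 and 889 on the DMSO arrays, and 1436551_at had 174, 199 and 229.9 on the LY294002 arrays, against 105, 142 and 145 on the DMSO arrays. Neither overlapped DMSO, and the log2 changes were 0.42 ± 0.11 (adjusted p = 0.0281) and 0.63 ± 0.15 (adjusted p = 0.0193). The representative probe set, 1425911_a_at, had 917, 1029 and 1273 on the LY294002 arrays and overlapped DMSO at 691, 886 and 1102. Its change of 0.28 ± 0.17 missed the threshold (adjusted p = 0.341) and passed it with the replicate number as a block (adjusted p = 0.0472). The call of 1424050_s_at was lost without LY294002 array 3 or DMSO array 1 or 2 (adjusted p 0.0596 to 0.107), and that of 1436551_at without LY294002 array 2 or 3 or DMSO array 1 (0.0548 to 0.0764).

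With the other inhibitors, 0 of the 3 Fgfr1 probe sets passed the limma threshold against DMSO, and 1 had an unadjusted p under 0.05 with SB202190 and 1 with TSA. With UO126 the log2 changes were −0.06, 0.00 and 0.09 (95% intervals within −0.42 to 0.40). The SB202190 changes were 0.28, 0.31 and 0.20 (adjusted p 0.155 to 0.568). The TSA changes pointed both ways, −0.19, −0.19 and 0.34. Of these, 1424050_s_at fell by 0.31 without TSA array 3 (adjusted p = 0.0234) and 1436551_at rose by 0.43 without DMSO array 3 (adjusted p = 0.0424).

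Fgfr2, known from the perichondrium and osteoblasts, passed the threshold against DMSO in 1 probe set and 1 comparison. Its representative probe set 1433489_s_at had 1310.2, 1239.6 and 1496 on the LY294002 arrays, 1310.4, 1304 and 1718 on the UO126 arrays, 1013, 1217 and 1199 on the SB202190 arrays and 868, 1056 and 976 on the TSA arrays, against 969.5, 1283 and 1151 on the DMSO arrays. Only UO126 did not overlap DMSO, and its change of 0.35 ± 0.13 missed the threshold (adjusted p = 0.22). Probe set 1420847_a_at had 527, 566 and 641 on the TSA arrays, below the 663, 779 and 755 on the DMSO arrays, and fell 1.27-fold (−0.34 ± 0.11, adjusted p = 0.0134). That call was lost without TSA array 1 or DMSO array 2 (adjusted p 0.0556 and 0.065), and 1433489_s_at fell with TSA by 0.33 only without DMSO array 1 (adjusted p = 0.047). With the median of the probe sets for the gene, Fgfr2 passed with TSA (log2 −0.28, adjusted p = 0.0355). The third probe set, 1443211_at, lay between 15.1 and 57.3 on all arrays and was not tested.

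Fgf7, a ligand of the IIIb form of Fgfr2, had the largest change of the members. Probe set 1438405_at had 42.8, 62.0 and 65.4 on the TSA arrays, against 555, 547 and 456 on the DMSO arrays, and 1422243_at had 56.6, 57.4 and 57.5 on the TSA arrays, against 251, 218 and 224 on the DMSO arrays. The decreases were 9.27-fold (log2 −3.21 ± 0.17, adjusted p = 5.82e-10) and 4.03-fold (−2.01 ± 0.12, adjusted p = 3.88e-09), and both held under all 24 alternatives. The TSA signals lay around the minimum of 50, and with every signal under 50 set to 50 the change of 1438405_at was −3.14.

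With LY294002, Fgf7 had 756, 777 and 716 at 1438405_at and 331, 292 and 281 at 1422243_at, and neither overlapped DMSO. The changes of 0.54 ± 0.17 and 0.38 ± 0.12 missed the threshold (adjusted p = 0.0615 and 0.073) and passed it with the replicate number as a block (0.0397 and 0.0323). That of 1438405_at passed in 7 of 24 alternatives: the block, without SB202190 array 3 (adjusted p = 0.0429) or TSA array 1 (0.0325), with arrays centred on the median (log2 0.66, adjusted p = 0.0377), with 16 added to the signal (0.0429), with signals under 50 set to 50 (0.0393) and with only the LY294002 and DMSO arrays in the fit (0.0374). The median of the 2 probe sets also passed (log2 0.46, adjusted p = 0.0293). UO126 arrays had 616, 534 and 461 and SB202190 arrays 582, 533 and 397 at 1438405_at, and both overlapped DMSO, with log2 changes of 0.04 and −0.06. The genes most like Fgf7 over the 15 arrays were Cdh11, a cadherin of mesenchymal cells (r = 0.992), and Csgalnact1, an enzyme of chondroitin sulfate synthesis (0.987). Over the 12 arrays without TSA these were 0.81 and 0.67.

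Fgf18, a ligand of Fgfr3 in cartilage, reached the minimum signal with TSA alone. Its single probe set 1449545_at had 107, 83.0 and 80.7 on the TSA arrays, against 35.2, 36.2 and 29.5 on the DMSO arrays, with no overlap. The TSA mean of 90.4 was the only group mean above the minimum, so the probe set entered the test through the group in which it was high, and its call supports nothing. DMSO signals under the minimum give no size for the difference, and with signals under 50 set to 50 it was 0.84 on the log2 scale. The LY294002 arrays had 23.9, 38.5 and 31.3, the UO126 arrays 27.8, 51.1 and 58.5 and the SB202190 arrays 24.4, 32.8 and 26.7, and all 3 groups overlapped DMSO.

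Fgf2, a broadly acting ligand, and Fgf10, a ligand of the IIIb form of Fgfr2, stayed under the minimum signal in every group. Fgf2 (1449826_a_at) ranged from 7.4 to 23.1 and Fgf10 (1420690_at) from 12.2 to 33.6 over the 15 arrays, while the median signal of an array was 29.8 to 39.96. In the fit without a filter, neither passed the threshold in any comparison with DMSO (adjusted p 0.359 to 0.994). At this signal a change could not be measured, and the values do not show that the genes were silent.

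The inhibitors were also compared with each other in the same fit, which the DMSO arrays enter through the shared spread alone. LY294002 and UO126 did not separate at the representative probe set of Fgfr3 (log2 −0.16, 95% interval −0.37 to 0.06, adjusted p = 0.405) or Fgfrl1 (−0.08, −0.33 to 0.17, adjusted p = 0.734). At the representative probe set of Fgfr1, 1425911_a_at, they overlapped, and the difference of 0.34 ± 0.17 missed the threshold (adjusted p = 0.264). At the other 2 Fgfr1 probe sets the signal was higher with LY294002 than with UO126, by 0.42 ± 0.11 at 1424050_s_at (adjusted p = 0.0308) and 0.54 ± 0.15 at 1436551_at (adjusted p = 0.0419). These were the 2 member calls of that comparison, where 6.61% of all tested probe sets were called in either direction. With the replicate number as a block, Fgfr1 1425911_a_at (adjusted p = 0.0224) and Fgf7 1422243_at (0.0478) were called as well, where 11.6% of all were called. The call of 1424050_s_at was lost without any 1 of the LY294002 or UO126 arrays (adjusted p 0.0523 to 0.113), and that of 1436551_at in 9 of the 15 omissions of 1 array (LY294002 array 2 or 3, any UO126 or SB202190 array, or TSA array 1, 0.0518 to 0.14).

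UO126 and SB202190, which the series lists as inhibitors of the same pathway, differed at both Fgfr3 and both Fgfrl1 probe sets, 4 calls where 8.19% of all tested probe sets were called. Fgfr3 1421841_at was 1.77-fold higher with UO126 than with SB202190 (log2 0.83 ± 0.10, adjusted p = 0.000111) and 1425796_a_at 1.79-fold higher (0.84 ± 0.22, adjusted p = 0.0252). Fgfrl1 was higher by 0.54 ± 0.12 (adjusted p = 0.00954) and 0.58 ± 0.15 (adjusted p = 0.0268). Of these, the call of Fgfr3 1421841_at was kept in each omission of 1 array. That of 1425796_a_at was lost without UO126 array 3 or SB202190 array 1 or 2 (0.0855 to 0.127), that of 1447878_s_at without UO126 array 3 or SB202190 array 1 (0.0544 and 0.0557), and that of 1451912_a_at without UO126 array 3 or any SB202190 array (0.0522 to 0.139).

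LY294002 against SB202190 gave 4 higher member probe sets, where 6.09% of all were called: Fgfr3 1421841_at (0.67 ± 0.10, adjusted p = 0.00118), Fgfrl1 1447878_s_at (0.45 ± 0.12, adjusted p = 0.0325) and both probe sets of Fgf7 (0.59 ± 0.17, adjusted p = 0.0474, and 0.65 ± 0.12, adjusted p = 0.00558). The calls of Fgfr3 and of Fgf7 1422243_at were kept in each omission of 1 array. That of Fgfrl1 was lost without any LY294002 array or SB202190 array 1 or 2 (0.0548 to 0.138), and that of Fgf7 1438405_at in 9 omissions (any LY294002 array, UO126 array 2, SB202190 array 2 or 3, TSA array 2, DMSO array 1 or 2, 0.0507 to 0.191).

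TSA differed from each other inhibitor at most members. Against LY294002, 1 member probe set was higher and 10 were lower, where 53.4% of all were called. Against UO126, 1 was higher and 8 lower, where 55.1% were called. Against SB202190, 1 was higher and 8 lower, where 52.5% were called. The higher one was Fgf18 each time, and its means of 31.3 with LY294002, 45.8 with UO126 and 28.0 with SB202190 were under the minimum, so no size is given. Fgf7 1438405_at was lower by 13.4-fold than with LY294002, 9.56-fold than with UO126 and 8.92-fold than with SB202190. Fgfr3 1421841_at was 3.55-fold, 3.95-fold and 2.23-fold lower in the same order.

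The fall of Fgfr3, Fgfrl1 and Fgf7 with TSA went along with that of cartilage genes. Of the 9 chondrocyte markers, 8 fell with TSA, where 26.6% of all tested probe sets fell (median log2 change −1.91), among them Acan, the main proteoglycan of cartilage (−2.26), and Sox9, the transcription factor of chondrocytes (−1.52), while Col2a1, the main cartilage collagen, was at 0.02 (adjusted p = 0.95). Their summed signal was 13728 to 15719 on the TSA arrays, against 21489 to 33057 on the DMSO arrays. Of 7 skeletal muscle markers, 5 also fell, with sums of 228 to 255 with TSA, against 597 to 1506 with DMSO. Of the markers of other cell types, 3 of 4 fell for osteoblasts, 4 fell and 1 rose of 5 for macrophages, 3 fell and 2 rose of 8 for fibroblasts, and 2 of 5 rose for epithelium, where 28.1% of all tested probe sets rose. Of these 2, Cdh1 reached the minimum signal with TSA alone (mean 76.1, against 15.6 with DMSO), so its call supports nothing. With LY294002, UO126 and SB202190, 0 of the 9 chondrocyte markers passed the threshold in the limma test (2, 4 and 2 had an unadjusted p under 0.05), and the summed signal of each group overlapped that of DMSO. Of all tested probe sets, 4.45%, 1.36% and 1.53% rose and 3.33%, 1.32% and 1.31% fell. The median log2 changes of the 9 markers were 0.17, 0.37 and −0.28 in the same order. Single markers ran from −0.02 to 0.59 with LY294002, from 0.03 to 0.6 with UO126 and from −0.85 to −0.01 with SB202190. The summed signal of the 4 osteoblast markers did not overlap DMSO with UO126 (2671 to 2940) or SB202190 (889 to 1335), against 2209 to 2542 with DMSO. With UO126 0 of the 4 passed the limma test (3 had an unadjusted p under 0.05). Sp7, Alpl and Ibsp were higher (log2 0.56, 0.71 and 0.19) and Dmp1 lower (−1.38). With SB202190 1 of the 4 fell, Ibsp, a bone matrix protein (2.53-fold, adjusted p = 0.0422), where 1.31% of all fell. The epithelial keratin Krt18 fell with LY294002 (3.77-fold, adjusted p = 1.53e-06) and UO126 (3.5-fold, adjusted p = 1.73e-06), the platelet factor Pf4 of the macrophage list fell with both (1.96-fold, adjusted p = 0.00562, and 1.65-fold, adjusted p = 0.0492), and Dpt of the fibroblast list fell with LY294002 (2.05-fold, adjusted p = 0.0384). The part of these shifts in the FGF values was not tested.

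Of the 19 other FGF genes on the array, 3 reached the minimum signal: Fgfr4, Fgf9 and Fgf13. Fgfr4, the fourth receptor with a kinase, averaged 188 ± 10.8 with UO126, 163 ± 8.87 with SB202190 and 61.4 ± 2.16 with TSA, against 115 ± 12.6 with DMSO (SD, n = 3 each). It rose 1.64-fold with UO126 (log2 0.71 ± 0.12, adjusted p = 0.00316) and 1.42-fold with SB202190 (0.51 ± 0.12, adjusted p = 0.0301) and fell 1.87-fold with TSA (−0.90 ± 0.12, adjusted p = 9.69e-06). With LY294002 its change was 0.34 (adjusted p = 0.0852). The SB202190 call was lost without any SB202190 array or DMSO array 2 or 3 (adjusted p of up to 0.12), and the others were kept in each omission of 1 array. Fgf13, a family member that stays inside the cell, fell 1.44-fold with TSA (adjusted p = 0.000895).

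The feedback inhibitors and genes induced through ERK form the list closest to FGF signalling output. With UO126, 5 of its 15 tested genes fell and 0 rose, where 1.32% of all tested probe sets fell and 1.36% rose, and the median log2 change was −0.59. Fosl1, a Fos family factor, had 142 ± 27.4 with UO126, against 326 ± 44.9 with DMSO (log2 −1.21 ± 0.14, adjusted p = 0.000195), and Etv5, an ETS factor, had 216 ± 14.7 with UO126, against 360.4 ± 62.2 with DMSO (−0.73 ± 0.13, adjusted p = 0.00477). Dusp4, an ERK phosphatase, is counted among the 5, but its means of 12.1 with UO126, against 28.0 with DMSO, were both under the minimum signal that it reached with TSA alone, so its change was not measured. The other 2 were Dusp6, also an ERK phosphatase, with 231 ± 32.4 with UO126, against 470.4 ± 34.5 with DMSO (−1.03 ± 0.24, adjusted p = 0.0311, up to 0.131 without any UO126 or DMSO array), and Phlda1 (−0.59 ± 0.13, adjusted p = 0.0225, up to 0.0912 without UO126 array 1 or 3 or DMSO array 1 or 2). With LY294002, 2 of the 15 fell and 0 rose (median 0.12), where 3.33% of all fell and 4.45% rose. Fosl1 fell by 1.32 (adjusted p = 0.000114) and Spred3, a Sprouty-related inhibitor, by 0.89 (adjusted p = 0.0484). The Spred3 call was kept only without LY294002 array 1, TSA array 2 or 3 or DMSO array 1 and had an adjusted p of up to 0.163 in the other 11 omissions of 1 array. The Fosl1 calls were kept in each omission.

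With SB202190, 1 of the 15 rose, where 1.53% of all rose, and the median was 0.29. It was Il17rd, an inhibitor of FGF receptors (0.73 ± 0.17, adjusted p = 0.0301), a call lost without SB202190 array 1 or 2 or DMSO array 2 or 3 (adjusted p of up to 0.144). With TSA, 8 rose and 3 fell (median 0.77), where 28.1% of all rose and 26.6% fell. The 8 and the median include Dusp4, which reached the minimum with TSA alone (mean 108, against 28.0 with DMSO), so its call supports nothing. Il17rd rose 3.67-fold and Spred2 2.13-fold, and Fosl1 fell 3.47-fold (adjusted p 4.37e-08 to 2.08e-07).

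Of 22 tested co-receptors and binding proteins, 11 rose and 6 fell with TSA, where 28.1% of all rose and 26.6% fell. Sulf2, which trims sulfate from heparan sulfate, fell 3.46-fold and the syndecan Sdc2 3.11-fold, and Ncam1, an adhesion molecule that binds FGF receptors, rose 3.41-fold (adjusted p 4.65e-10 to 1.36e-07). With LY294002, 3 rose and 2 fell, where 4.45% of all rose and 3.33% fell. The glypican Gpc4 was up 1.42-fold (adjusted p = 0.0194), and Gpc1 down 1.30-fold (0.0229). The other fall was counted for Fgfbp1, an FGF carrier whose means of 26.2 with LY294002, against 47.5 with DMSO, were both under the minimum, so its change was not measured. Gpc4 also rose with UO126 (1.5-fold, adjusted p = 0.0145), and Gpc1 fell with SB202190 (1.5-fold, adjusted p = 0.00325), each the only call of the list in its comparison. Of all tested probe sets, 1.36% rose with UO126 and 1.31% fell with SB202190. The Gpc4 calls were lost without LY294002 array 1 or DMSO array 2 (LY294002, adjusted p of up to 0.086) and without UO126 array 1 or DMSO array 2 (UO126, up to 0.0739), and the Gpc1 call with LY294002 without LY294002 array 1 or 2 or DMSO array 2 or 3 (up to 0.0964).

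Of 21 tested adaptors and transducers, Gab1, a docking protein that couples receptors to PI3K, rose with LY294002 (1.35-fold, adjusted p = 0.0115) and UO126 (1.51-fold, adjusted p = 0.00234), with 405 ± 19.5 and 454 ± 58.6, against 299 ± 1.96 with DMSO (SD, n = 3 each). Both calls were kept in each omission of 1 array. Pik3ca, a catalytic subunit of PI3K, rose 1.32-fold with LY294002 (adjusted p = 0.0416), a call lost without any LY294002 array, SB202190 array 1 or 2, TSA array 2 or DMSO array 2 or 3 (adjusted p of up to 0.147). In all, 2 of the 21 rose and 0 fell with LY294002, where 4.45% of all rose and 3.33% fell. With UO126, 1 rose and 0 fell, where 1.36% of all rose and 1.32% fell. With SB202190, 0 of the 21 passed the limma test (3 had an unadjusted p under 0.05), where 1.53% of all rose and 1.31% fell. With TSA, 8 rose and 5 fell, where 28.1% of all rose and 26.6% fell. Map2k1 rose 1.67-fold (adjusted p = 1.21e-07) and Cbl 1.3-fold (0.000548), and Akt1 fell 1.45-fold (0.000529).

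Of 13 tested growth plate genes linked to Fgfr3, 1 rose and 0 fell with LY294002, where 4.45% of all rose and 3.33% fell. It was Rbl2, a retinoblastoma family protein (1.34-fold, adjusted p = 0.0438, kept only without UO126 array 1 or 3, SB202190 array 1 or DMSO array 1, and up to 0.132 in the other 11 omissions of 1 array). With UO126, 0 passed the limma test (5 had an unadjusted p under 0.05), where 1.36% of all rose and 1.32% fell. With SB202190, 1 rose and 1 fell, where 1.53% of all rose and 1.31% fell. Ptch1, the hedgehog receptor and target, had 701 ± 49.6 with SB202190, against 1287 ± 81.1 with DMSO, a 1.84-fold decrease (adjusted p = 0.000885), and Rbl2 rose 1.49-fold (adjusted p = 0.0194, up to 0.0933 without SB202190 array 2 or 3 or DMSO array 2 or 3). With TSA, 2 rose and 8 fell, where 28.1% of all rose and 26.6% fell, among the falls the collagenase Mmp13 (5.28-fold), Rbl1, a relative of Rbl2 (2.61-fold), and Npr2, the receptor of C-type natriuretic peptide (2.22-fold).

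**Figure D4:**
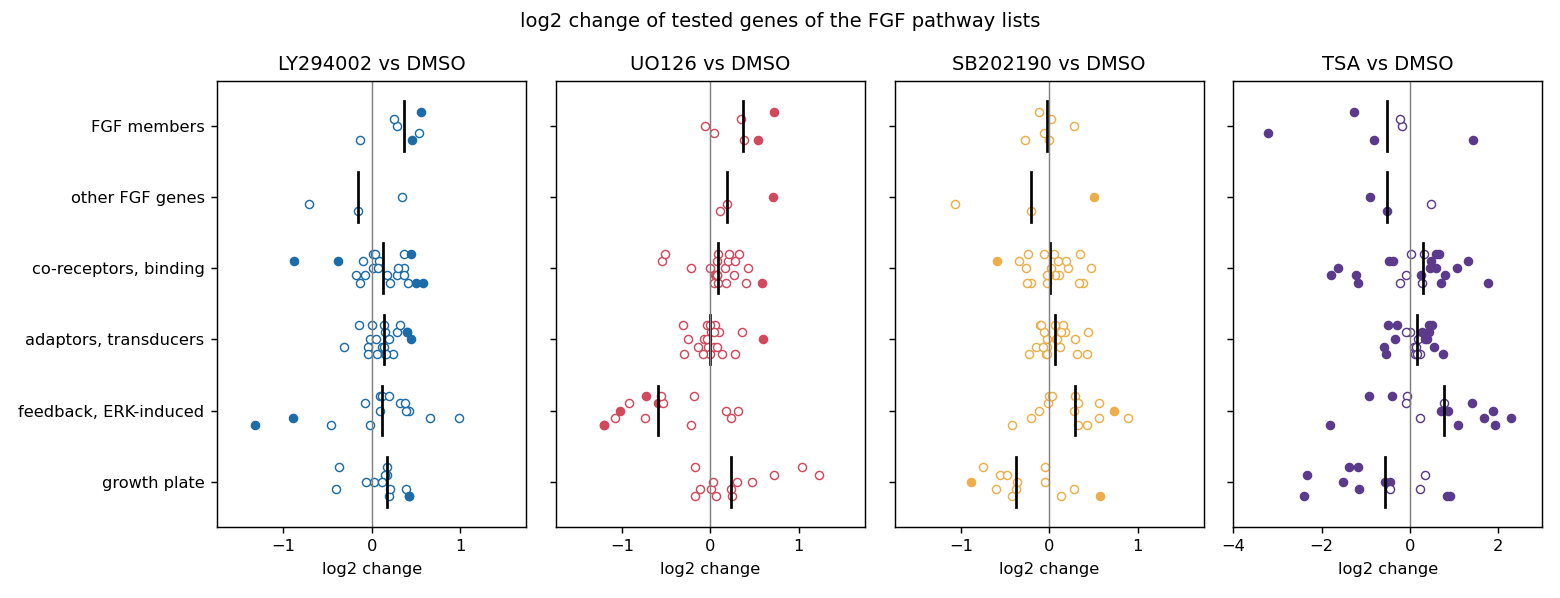
log2 change against DMSO of each tested gene (1 circle per gene, filled where the limma adjusted p was under 0.05) in the FGF members and 5 pathway lists (rows), for each inhibitor (panels, with a wider axis for TSA). Black bars are medians, which for the feedback and ERK-induced genes were −0.59 with UO126 and 0.77 with TSA. Both include Dusp4, which reached the minimum signal with TSA alone.

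Likeness was also taken for the other members. Fgfr1 was most like Ubxn6 (0.936 over 15 arrays, 0.95 over 12) and Fgfr2 most like Prdx4, a peroxiredoxin of the endoplasmic reticulum (0.938 and 0.91). Fgf18 was most like Tmem30b (0.947 and 0.84). Between members, Fgfr2 had an r of 0.81 with Fgfr3 and 0.84 with Fgfrl1 (0.74 and 0.83 without TSA), while Fgfr1 had 0.42 and 0.49 (−0.05 and 0.14 without TSA). Fgf7 had 0.90 with Fgfr3 and 0.87 with Fgfrl1 (0.36 and 0.23 without TSA). Fgf7 and Fgf18 were at −0.86 over the 15 arrays and at −0.20 without TSA, where nearly all Fgf18 signals were under the minimum.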

How the data were processed

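RNA of 15 cultures was hybridized to 1 array each. The deposited values are probe set intensities from the MAS5 algorithm, calculated and scaled per array by the authors, linear and with a trimmed mean of 150 on every array. No read depth exists for arrays, and their number limits the precision. Where nothing ties arrays to separate litters, p-values measure the spread between these arrays.

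Symbols came from the platform annotation, in which 34958 of 45101 probe sets had 1 symbol, 932 several and 9211 none, and 99.4% of those with 1 symbol matched the RefSeq table by gene ID. The 64 control probe sets were left out. Signals under 1 were set to 1, and log2 signals of all 15 arrays were fitted on the 5 groups with limma 3.58.1 in R 4.3.3 (lmFit, eBayes with a variance trend), with the filter of a group mean of 50 in at least 1 group. The two-sided p-values were adjusted by Benjamini-Hochberg within each of 10 comparisons, with a threshold of 0.05. The fit was tested on simulated data.

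Every member probe set is described, and the probe set with the highest mean log2 signal represents a gene. Of each pathway list, up to 3 genes with the smallest adjusted p are named per comparison with DMSO (a few others were named after their values were seen), and the genes most like a member are those with the highest Pearson r. The members and lists were chosen with earlier results of these data known.

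Replicate numbers pair arrays here where every same-numbered pair of deviations from the group means correlated above 0.1. That held for LY294002 and DMSO (0.42, 0.16 and 0.30) and UO126 and DMSO (0.42, 0.23 and 0.22). It also held for LY294002 and UO126 (0.34, 0.17 and 0.22) and TSA and SB202190 (0.14, 0.14 and 0.19). The paper reports independent experiments for the DMSO and LY294002 cultures, without stating how the replicate numbers map to them. The pairing was therefore read from the data, and the fit reported above left it out. The alternatives changed the normalization, the filter, the floor, the variance model, the samples fitted, the block, the probe set rule and each array in turn.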

Additional observations from a re-analysis of the deposited data

How the results depend on the processing

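The number of member probe sets called with LY294002 was 5. It was 2 with no filter, with no variance trend or with only the groups compared in the fit, 8 with the replicate block, and 1 to 6 when 1 array was left out. With UO126 it was 3, and 1 with arrays centred on the median, with no variance trend or with only the groups compared in the fit, and 1 to 3 when 1 array was left out. With SB202190 it was 0, and 1 with the replicate block (Fgfr1 1424050_s_at, adjusted p = 0.0362), where the replicate numbers did not pair the arrays. With TSA it was 8, and 7 to 9 when 1 array was left out. Over the 6 comparisons between inhibitors there were 39 calls, 34 to 41 when 1 array was left out and 50 with the block. Against DMSO, the block also brought Fgfr1 1436551_at with TSA past the threshold (adjusted p = 0.0242). There too, the replicate numbers did not pair the arrays. For LY294002 and UO126 against DMSO, the block changed no call other than those given above. Fgfr2 1420847_a_at passed for TSA against SB202190 with the block (adjusted p = 0.00505).

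Of the changes with no call at representative probe sets, those of 6 pairs of gene and inhibitor turned sign under some alternative. Other probe sets also turned sign, among them Fgfr3 1425796_a_at with UO126 (−0.06 to 0.37 over the alternatives). When 1 array was left out, the log2 change of Fgfr1 with UO126 lay between −0.23 and 0.10, Fgfr2 with SB202190 between −0.09 and 0.11, Fgfrl1 with SB202190 between −0.08 and 0.08, Fgf7 with UO126 between −0.06 and 0.15, Fgf7 with SB202190 between −0.17 and 0.11 and Fgf18 with LY294002 between −0.29 and 0.05. The median of the probe sets gave −0.04 for Fgfr2 and 0.01 for Fgfrl1 with SB202190. Quantile normalization gave 0.01 for Fgfrl1 with SB202190 and 0.01 for Fgf18 with LY294002, and centring gave 0.04 for Fgfrl1 with SB202190. Centring moved the median of all tested probe sets with LY294002 to 0.12, and of 1190 calls 1019 were then higher and 171 lower, against 969 higher and 724 lower in the fit reported above. The Fgfrl1 call with UO126 was lost with centring (0.56, adjusted p = 0.115). The causes were not tested. Signals near or under 50 limit what can be said of Fgf18, and of Fgf7 and Fgfr3 1425796_a_at under TSA.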
